A study of Equus asinus with 12 samples.

Results

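The loci described here are rows of a donkey skeletal muscle expression table whose reference transcripts are all of the predicted non-coding kind. A row was taken when its transcript list held a RefSeq non-coding entry and no RefSeq coding entry, when it carried 1 gene name, and when 3 or more of the 12 libraries were at or above 1 FPKM, which is fragments scaled for transcript length and for the mapped total of the library. These loci, 234 of 27084 rows, were thus chosen by their measured FPKM as well as their transcript type, so the number of loci and their levels are given as a description.

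The series sampled 6 Dezhou donkeys of 2 strains, Sanfen and Wutou, all 24 months old. RNA came from the longissimus dorsi, a back muscle that extends the spine, and from the gluteal muscle of the rump, with 3 libraries for each of Sanfen longissimus, Sanfen gluteal, Wutou longissimus and Wutou gluteal. The labels give no treatment and no altered gene in any group, and the study set out to find and compare long non-coding RNAs of the strains. The labels do not say which libraries came from which donkey.

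Long non-coding RNAs are transcripts that are processed like messenger RNAs but hold no recognised long reading frame. Many are transcribed from within or beside a protein-coding gene, and most that have been studied are less abundant and more restricted in their expression than messenger RNAs. In skeletal muscle some act in myoblast differentiation, and a few transcripts first listed as non-coding have turned out to encode small proteins.

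The libraries carried the muscle programme: the 8 listed skeletal muscle markers, which include ACTA1, CKM and TTN, reached at least 1 FPKM and summed to 26083 to 33863 FPKM. Endothelial markers summed to 45.6 to 82.5 FPKM, satellite cell markers to 3.98 to 58.0 and tendon and cartilage markers to 18.3 to 147. Fast fibre markers summed to 6002 in 1 Sanfen longissimus library and 8570 in 1 Sanfen gluteal library, against 11707 to 18425 in the other 10. The summed FPKM of all rows ran from 214564 to 319767. Reads per library were not given, so depth and counting precision are unknown, and in such bulk samples fewer cells of a type and less RNA per cell cannot be told apart.

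Only a small part of the non-coding rows reached the level asked for. Of 2823 rows with 1 name and non-coding entries alone, 8.29% were kept, against 50.3% of 17453 rows with a coding entry. Over the 12 libraries the median of the mean FPKM was 1.29 for the 234 loci and 2.64 for the 8785 kept coding rows. The mean was below 2 in 164 loci and below 1 in 71, and it reached 5 in 19 and 10 in 10. In 50 loci every library was at 1 FPKM or above, and 31 loci reached that level in exactly 3 libraries. No locus (0 of 234) passed through the libraries of 1 group alone. Loci that passed through 1 strain or 1 muscle alone were not counted. Such loci exist: LOC106833465 and LOC106830323 reached 1 FPKM only in Sanfen libraries. For loci of this kind a strain difference is not independent of the filter.

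The loci together took 0.274% to 0.418% of the summed FPKM of a library. That share was concentrated: the 10 most abundant loci held 58.1% of the loci's summed mean level and the first of them 24.3%. Lowering the threshold to 0.5 FPKM would have taken 478 rows and raising it to 5 would have left 27. Just inside the threshold lay LOC106828678, LOC106841729 and LOC106833465, where the highest value but 2 was 1.01 FPKM each. Just outside lay LOC106831258, LOC106847680 and LOC106842900 at 0.996, 0.994 and 0.992.

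The name non-coding did not hold for all of them in later annotation. The current RefSeq annotation of the donkey assembly EquAss-T2T_v2, used only for names, gene classes and neighbours, matched 90 of the 234 loci. It lists 63 of the 90 as long non-coding RNA, 25 as protein-coding and 2 as pseudogenes, and 144 loci had no match. Of the 25 coding loci 17 have a symbol, among them ATP5ME, SEM1, SMIM26, MTARC2, CD164, PTMS and CYTH3. The deposited table itself gives a protein description to 101 of the 234 loci (43.2%), and to 633 of the 2589 non-coding rows below the threshold (24.4%). Descriptions went with 18 of the 25 loci now coding and with 20 of the 63 now long non-coding.

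Rows now listed as coding were kept more often than the rest, at 18.8% of 133 rows, against 8.81% of 715 rows now listed as long non-coding RNA and 7.33% of 1964 rows with no match. The median of the mean FPKM was 1.83 for the 25 coding loci, 1.20 for the 63 long non-coding loci and 1.25 for the 144 without match. The plot by annotation class shows wide overlap. The most abundant locus of all is now a long non-coding RNA. Since level was part of the rule, these shares and medians were not tested.

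**Figure D1:**
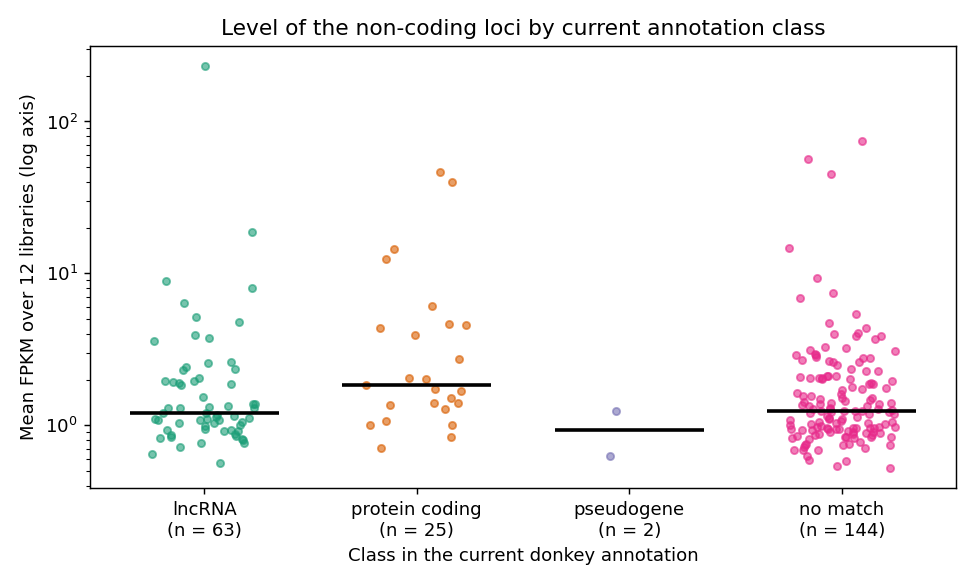
Mean FPKM over the 12 libraries (log axis) for each of the 234 loci, split by class in the current donkey annotation; each point is a locus and each bar a class median. Medians lie at 1.20 (long non-coding RNA), 1.83 (protein coding) and 1.25 (no match), and the point at 232 belongs to LOC106843880.

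The 27 long non-coding loci that overlap the span of a coding gene, and loci whose description names an expressed protein gene, may share reads with that gene. Strand use in the counting is not stated, so levels of such loci are uncertain.

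Some of the abundant loci have mitochondrial protein descriptions. Picked by words in the description, 7 of the 234 loci were of this kind, with means from 232 down to 2.60 FPKM. They held 38.8% of the summed mean level of the 234 loci, of which LOC106843880 alone held 24.3%. The share of such descriptions among other rows was not counted. LOC106843880 is described as COX8B, a subunit of cytochrome c oxidase, the last enzyme of the respiratory chain. It is now a long non-coding RNA that overlaps PSMD13, a proteasome subunit gene. Its level was 248, 150 and 220 FPKM in longissimus and 307, 302 and 234 in gluteal muscle of Sanfen. In Wutou it was 246, 307 and 193 in longissimus and 178, 131 and 264 in gluteal. All 12 values were above 100 FPKM and the 4 groups overlapped. The highest was 2.34 times the lowest. The PSMD13 row itself ran from 18.4 to 30.3 FPKM.

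LOC106841001, with no match in the current annotation, is described as VDAC1, the main channel of the outer mitochondrial membrane. It was the steadiest of the loci with a mean of at least 5: 77.6, 75.3 and 63.9 FPKM in longissimus and 88.1, 84.1 and 66.7 in gluteal muscle of Sanfen. In Wutou it was 80.4, 72.0 and 67.4 in longissimus and 79.7, 76.7 and 65.1 in gluteal. The groups overlapped throughout, and the SD of log2(FPKM + 1) was 0.15. The row named VDAC1 was lower at a mean of 23.3 FPKM. Whether the 2 rows share reads was not tested.

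LOC106825438 is now ATP5ME, the e subunit of the mitochondrial ATP synthase. Levels were 40.7, 19.3 and 40.9 FPKM in longissimus and 52.4, 39.7 and 58.3 in gluteal muscle of Sanfen. The Wutou values were 53.7, 46.9 and 66.4 in longissimus and 27.1, 59.1 and 56.2 in gluteal. In longissimus muscle all 3 Wutou values lay above all 3 Sanfen values. The difference was 0.77 on the log2(FPKM + 1) scale (SE 0.35, limma adjusted p = 0.854).

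LOC106827342 is described as the import protein MIA40, whose gene is CHCHD4, and had a mean of 7.45 FPKM. The CHCHD4 row had a mean of 0.407. LOC106830453 is now MTARC2, a molybdenum enzyme of the outer mitochondrial membrane. It stood at 3.77, 3.89 and 3.95 FPKM in longissimus and 7.55, 5.06 and 4.62 in gluteal muscle of Sanfen. Wutou had 3.29, 4.92 and 4.25 in longissimus and 3.60, 3.58 and 3.91 in gluteal. The Sanfen gluteal values lay above those of Sanfen longissimus and above those of Wutou gluteal, without overlap. Against Sanfen longissimus the log2 difference was 0.45 (SE 0.18, limma adjusted p = 1).

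Other abundant loci carry descriptions of ubiquitin and proteasome proteins. LOC106843396 is described as the ubiquitin ligase MIB1 and overlaps that gene in the current annotation, which lists it as long non-coding RNA. It ranged from 10.1 to 26.1 FPKM with a mean of 18.6, while the 2 rows named MIB1 had means of 2.0 and 1.51. LOC106842713 is now SEM1, a small proteasome subunit. It was 4.01 FPKM in Sanfen longissimus library 2 and 8.10 to 16.7 in the other 11.

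LOC106835049 has labels that disagree. The deposited description is CYSTM1, the current symbol is PURA, a nucleic acid binding protein, and a separate row named PURA had a mean of 1.32 FPKM. The locus itself was at 46.4, 44.4 and 46.0 FPKM in longissimus and 27.0, 43.4 and 26.8 in gluteal muscle of Sanfen. For Wutou the longissimus values were 50.2, 56.0 and 30.5 and the gluteal ones 35.7, 22.8 and 50.4. The Sanfen muscles did not overlap, gluteal being lower by a log2 difference of -0.52 (SE 0.32, limma adjusted p = 1).

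LOC106822270, now coding, is described as metallothionein-4, of a family of small proteins that bind zinc and copper. It was 15.5, 4.88 and 28.3 FPKM in longissimus and 8.25, 6.58 and 44.0 in gluteal muscle of Sanfen. Among Wutou libraries, longissimus gave 28.2, 10.0 and 9.12 and gluteal 4.23, 4.06 and 10.5. Both Sanfen muscles had their highest value in library 3, and the 4 groups overlapped.

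Of the 10 most abundant loci, 3 have neither a match in the current annotation nor an informative description. LOC106833544 was even, at 12.2 to 17.5 FPKM. LOC106833580 ranged from 14.5 to 113. LOC106833642 was the most uneven of the 3: 34.3, 127 and 133 FPKM in longissimus and 27.4, 22.0 and 29.5 in gluteal muscle of Sanfen. In Wutou it was 40.8, 46.4 and 0.169 in longissimus and 23.1, 27.9 and 27.5 in gluteal. Sanfen longissimus libraries 2 and 3 were far above the rest and Wutou longissimus library 3 far below. All 3 Sanfen longissimus values lay above all 3 Sanfen gluteal values. In longissimus muscle the strains overlapped, with a log2 difference of Wutou from Sanfen of -2.67 (SE 1.11, limma adjusted p = 0.854). The highest value of this locus was 785 times its lowest.

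Other even loci with a mean of at least 5 were LOC106822744, at 5.36 to 10.6 FPKM, and LOC106836583, at 3.87 to 7.34. The former is a long non-coding RNA that overlaps KIF2C, a kinesin gene whose own row had a mean of 0.0298.

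**Figure D2:**
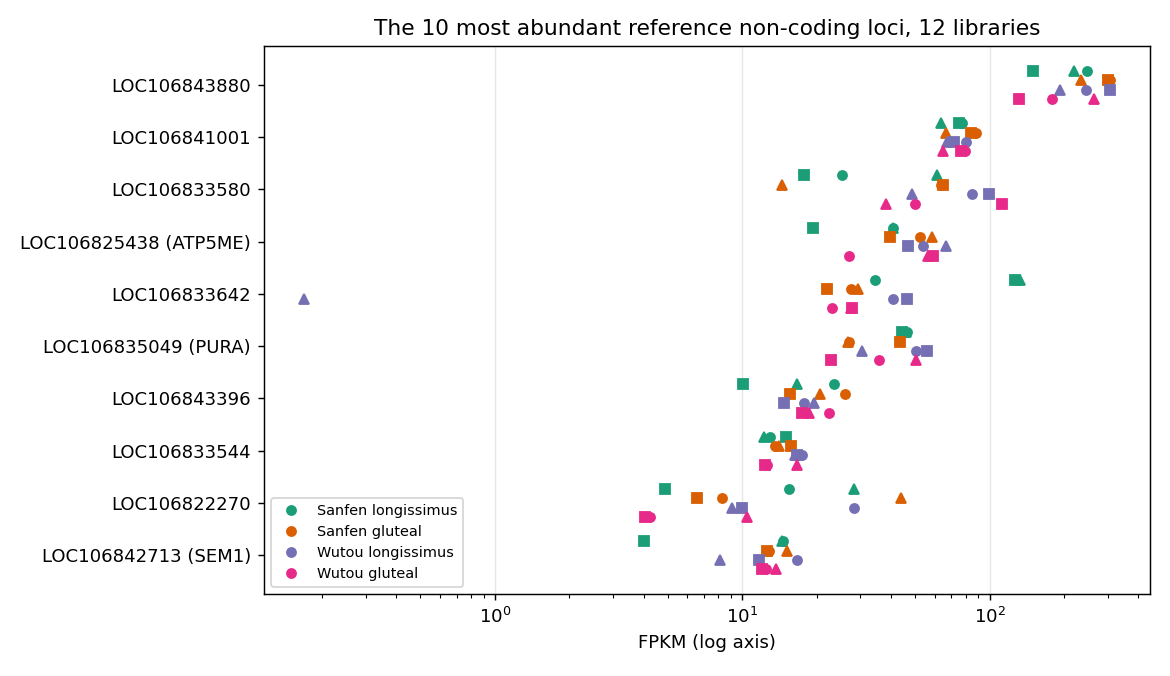
FPKM (log axis) of the 10 most abundant loci in each of the 12 libraries; colours give the group and the circle, square and triangle stand for libraries 1, 2 and 3 of a group. Groups are intermixed for most loci, LOC106841001 spans only 63.9 to 88.1, and LOC106833642 has 1 library at 0.169.

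At the same mean level, the median spread between libraries was higher for the loci than for coding rows. For a mean FPKM from 1 to 2 the median SD of log2(FPKM + 1) was 0.339 over 93 loci and 0.240 over coding rows. From 2 to 5 it was 0.414 over 51 loci and 0.265 over coding rows, and at 10 or more 0.453 over 10 loci and 0.324. The quartiles of the 2 kinds overlapped: from 1 to 2 FPKM they were 0.249 to 0.463 for the loci and 0.183 to 0.321 for coding rows. Even so, the median of the loci lay above the upper quartile of coding rows there and from 2 to 5 FPKM, where that quartile was 0.365. Of the 228 loci above 0 in every library, 51 had a highest value at least 10 times the lowest and 17 stayed under 2 times. The median ratio was 4.23. Kept rows with neither a coding nor a non-coding reference entry also had a higher median SD than coding rows. It was 0.285 from 1 to 2 FPKM, 0.350 from 2 to 5 and 0.638 at 10 or more. A spread above that of coding rows was thus not particular to these loci. Below 10 FPKM the median of the loci was above that of these other rows, and at 10 or more it was below. These are descriptions without a test.

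**Figure D3:**
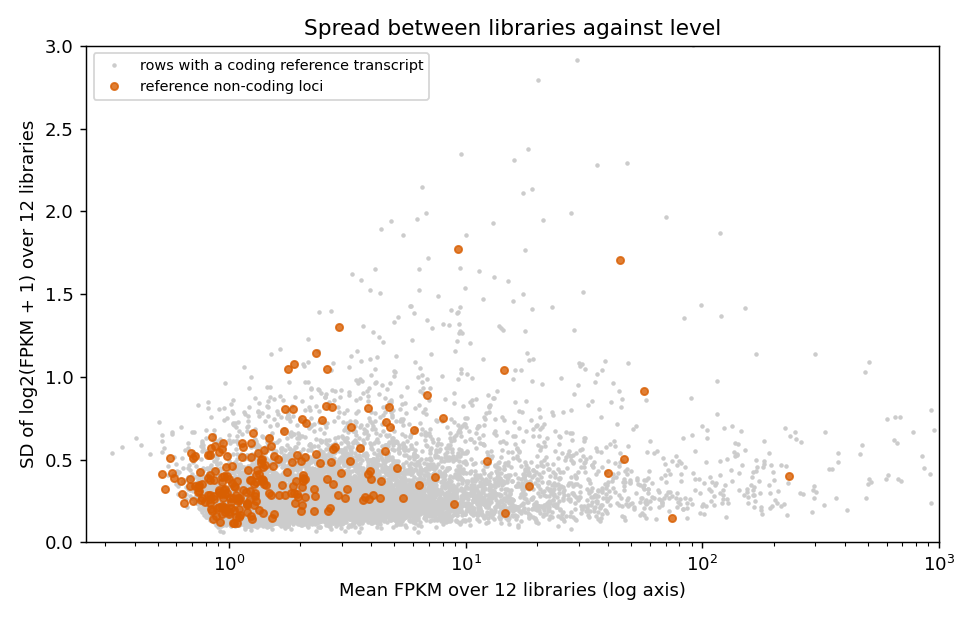
SD of log2(FPKM + 1) over the 12 libraries against mean FPKM (log axis); orange points are the 234 loci and grey points the kept rows with a coding transcript, of which those beyond the axes are not drawn. The orange points overlap the grey ones but have a higher median SD at the same mean level, with LOC106841361 (SD 1.77) and LOC106833642 (SD 1.70) at the top.

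Some loci were high in only a few libraries. LOC106841361, without match or description, was 22.1 and 26.1 FPKM in Sanfen longissimus libraries 2 and 3, 19.5 in Wutou longissimus library 2 and 34.4 in Wutou gluteal library 3. The other 8 libraries were between 0.714 and 1.61. High and low libraries occurred together in 3 of the 4 groups. LOC106840414, now SMIM26, which encodes a small membrane protein, was 14.4 and 14.8 FPKM in Sanfen gluteal libraries 2 and 3 and 2.89 to 6.32 elsewhere. Here both high libraries lay in 1 group, whose library 1 was not high. The log2 difference of Wutou from Sanfen in gluteal muscle was -1.13 (SE 0.42, limma adjusted p = 0.963), with overlap.

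In some loci the high values had the same library number in both muscles of a strain. LOC106839370, described as an uncharacterised horse protein, was 23.1 FPKM in Sanfen longissimus library 1 and 13.5 in Sanfen gluteal library 1, against 2.59 to 6.09 in the other 4 Sanfen libraries. In Wutou it reached 10.7 in gluteal library 1 but 3.99 in longissimus library 1. LOC106825381, a long non-coding RNA that overlaps the muscle ubiquitin ligase adaptor gene ASB2, was 12.6, 2.41 and 19.4 FPKM in longissimus and 5.0, 3.81 and 14.8 in gluteal muscle of Sanfen. Library 3 was the highest of each trio. Its 6 Wutou values were closer, at 4.03 to 8.16, and the ASB2 row ran from 84.1 to 148.

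An exact 0 in any library was listed for 6 of the 234 loci. LOC106835368 was listed at 0 in Sanfen longissimus library 2 and reached 7.75 FPKM in Sanfen gluteal library 1. LOC106836345, described as the RNA-binding protein LSM14B, was listed at 0 in Sanfen longissimus library 3 and reached 6.20 in library 2 of that group. Both extremes of the latter lay within 1 group.

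There were 3 loci with histocompatibility descriptions, a family whose products present peptides to T cells. LOC106828536, described as a class I chain, was 0.0643, 0.0191 and 1.38 FPKM in longissimus and 0.0185, 0.115 and 0.712 in gluteal muscle of Sanfen. In Wutou it was 1.26, 6.26 and 0.788 in longissimus and 2.04, 7.90 and 0.743 in gluteal. Wutou library 2 was the highest in both muscles and Sanfen library 3 was the highest of its strain in both muscles. Averaged over muscles Wutou was higher by a log2 difference of 1.35 (SE 0.44, limma adjusted p = 0.793). The strains overlapped in longissimus and did not overlap in gluteal muscle.

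LOC106830323, described as a class II antigen, ran the other way. It was 1.57, 0.883 and 1.61 FPKM in longissimus and 2.31, 0.692 and 1.08 in gluteal muscle of Sanfen. The Wutou values were 0.699, 0.422 and 0.847 in longissimus and 0.512, 0.539 and 0.328 in gluteal. Within each muscle the strains did not overlap. Averaged over muscles the log2 difference was -0.57 (SE 0.18, limma adjusted p = 0.793). Only Sanfen libraries reached 1 FPKM, so this locus was taken through the strain in which it was higher. Its strain difference is therefore a description and not independent of the rule. The other class II locus, LOC106834619, was 0.536 to 2.63 FPKM in Sanfen and 1.31 to 2.90 in Wutou. Histocompatibility genes form families of similar sequence, so reads may be split among them.

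Long non-coding loci beside muscle genes were looked at after their values were seen. LOC106848061 overlaps MYL1, the fast myosin light chain gene, and LANCL1. It was 4.33, 11.6 and 0.585 FPKM in Wutou gluteal and 0.760 to 3.04 elsewhere. The main MYL1 row ran from 622 to 2428, and at Wutou gluteal library 2 it was 1970. LOC106829072 neighbours FABP3, which binds fatty acids in muscle, and was 0.782 to 6.19 FPKM. FABP3 was highest in Sanfen gluteal library 1 at 40.9, where the non-coding locus was at 2.89. LOC106828112 lies in the HOXC cluster of body axis genes, overlapping HOXC9 and HOXC4. It was 0.917, 0.0481 and 0.248 FPKM in longissimus and 5.45, 2.39 and 0.103 in gluteal muscle of Sanfen. Wutou had 3.61, 8.59 and 0.192 in longissimus and 0.0985, 2.88 and 3.59 in gluteal. Sanfen longissimus was low throughout, and each other group had 1 library at that level.

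Group comparisons were made with limma on log2(FPKM + 1) in 1 model over all 12408 kept rows, with Benjamini-Hochberg adjustment over all of them at 0.05. With all 12 libraries, 0 of the 234 loci passed in each of the 7 comparisons. For gluteal against longissimus muscle the loci called were 0 in Sanfen (0.0242% of all rows were called), 0 in Wutou (0%) and 0 averaged over strains (0%). For Wutou against Sanfen they were 0 in longissimus (0.0161%), 0 in gluteal (0.00806%) and 0 averaged over muscles (0%). For the interaction of strain and muscle they were 0 (0.00806%). With so few rows called in all, a count of 0 among 234 loci was near the background. Without Sanfen gluteal library 1, LOC106830394 passed in Sanfen and averaged over strains. A p that missed the threshold does not show that the groups were alike.

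At an unadjusted p under 0.05 the shares of loci were also close to those of all rows. In gluteal against longissimus muscle they were 12 loci in Sanfen (5.13%, against 3.57% of all rows), 14 in Wutou (5.98% against 5.68%) and 12 averaged over strains (5.13% against 6.56%). In Wutou against Sanfen they were 13 loci in longissimus (5.56% against 5.52%), 17 in gluteal (7.26% against 4.86%) and 15 averaged over muscles (6.41% against 5.97%). The interaction had 5 loci (2.14% against 2.6%).

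**Figure D4:**
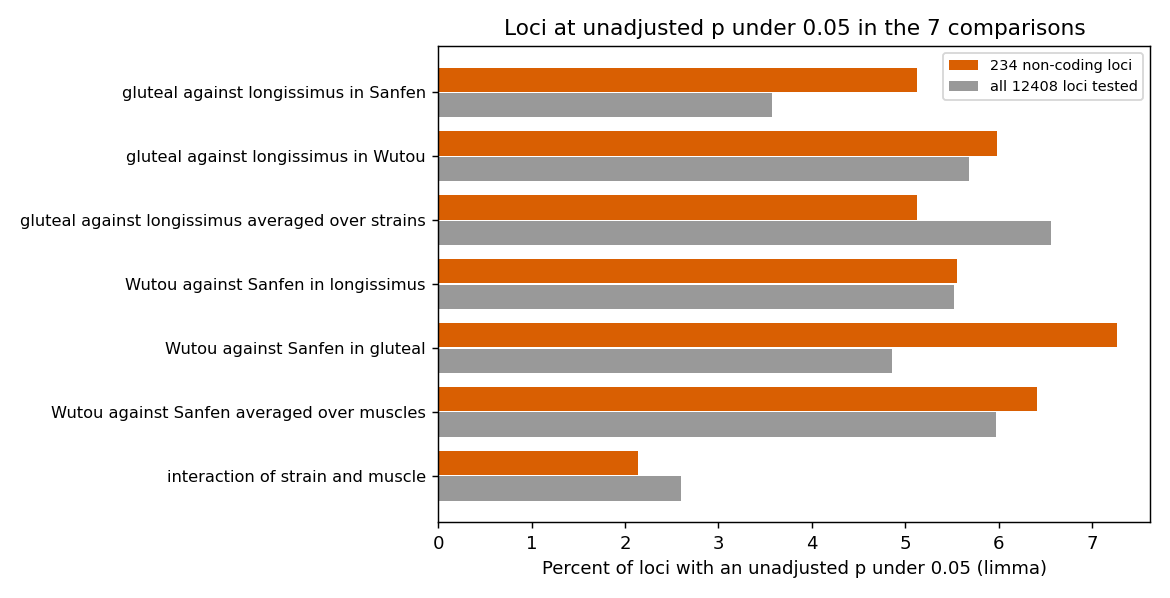
Percent of loci with an unadjusted limma p under 0.05 in the 7 comparisons, for the 234 loci (orange bars) and all 12408 rows tested (grey bars). The 2 bars of each pair lie close together, the widest gap being 7.26% against 4.86% for Wutou against Sanfen in gluteal muscle.

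Complete separation of 3 libraries from 3 was counted as well. In Sanfen 10 loci were higher in every gluteal than in every longissimus library (4.27%, against 6.27% of all rows) and 5 lower (2.14% against 1.27%). In Wutou 14 were higher (5.98% against 8.7%) and 8 lower (3.42% against 4.18%). Between strains, 12 loci were higher in Wutou longissimus (5.13% against 3.88%) and 16 lower (6.84% against 7.92%). In gluteal muscle 4 were higher in Wutou (1.71% against 2.19%) and 26 lower (11.1% against 8.68%). With 6 libraries against 6, 0 loci separated the muscles (0.387% of all rows did) and 0 separated the strains (0.475%). The share of loci was within a few percentage points of that of all rows in each of these counts.

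The typical difference also followed that of all rows. The median log2 difference of the loci for gluteal against longissimus was 0.07 in Sanfen and 0.02 in Wutou, beside 0.08 and 0.05 for all rows. For Wutou against Sanfen it was -0.07 in longissimus and -0.09 in gluteal, beside -0.06 and -0.09. On the deposited scale 146 of the 234 loci were higher in Sanfen gluteal muscle and 78 higher in Wutou gluteal muscle than in Sanfen gluteal. After median-of-ratios rescaling these counts were 121 and 106, and after quantile normalization 113 and 120. The first rescaling narrowed both counts without turning the side on which most loci lay, and the second turned it in both. Both rescalings moved the median of all rows in the same way, by about -0.08 in the first comparison and 0.08 to 0.09 in the second.

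Markers of fibre types and of other cells also separated some of the groups compared. Between Sanfen and Wutou longissimus, tendon and cartilage markers (6 of 7 measured) summed to 34.6 to 110 FPKM against 20.7 to 28.3, and fast fibre markers (8 of 10 measured) to 6002 to 15377 against 16792 to 18425. The 3 measured of 6 blood markers summed to 0.257 to 3.79 against 0.0610 to 0.198. Only 1 of these 3 reached 1 FPKM in any library and the Sanfen median sum was 0.284, so this separation lies at very low values. Between Sanfen and Wutou gluteal, slow fibre markers (8 of 9 measured) summed to 3601 to 7395 against 2477 to 2648. Between Wutou longissimus and gluteal, adipocyte markers (6 of 6) summed to 18.3 to 26.0 against 28.5 to 37.1, and skeletal muscle markers (8 of 8) to 28960 to 33863 against 26742 to 27768. Between the Sanfen muscles the sums of all lists overlapped. The part of these markers in the differences of single loci described next was not tested.

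For gluteal against longissimus muscle in Sanfen the smallest p among the loci belonged to LOC106848534, which is described as a part of HIF1A, the oxygen-regulated subunit of the hypoxia-inducible transcription factor. It was listed at 0 and at 0.245 and 0.0379 FPKM in Sanfen longissimus and was 1.38, 0.909 and 0.619 in Sanfen gluteal. In Wutou it was 1.15, 0.282 and 1.04 in longissimus and 0.651, 0.412 and 0.195 in gluteal. Sanfen longissimus lay below both Sanfen gluteal and Wutou longissimus without overlap. The muscle difference in Sanfen was 0.84 (SE 0.24, limma adjusted p = 1) and the interaction -1.18. The row named HIF1A ran from 2.36 to 5.34 FPKM.

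LOC106835701, a long non-coding RNA overlapping the ubiquitin ligase gene TRIM45, had the smallest p between strains in gluteal muscle. Its values were 1.51, 0.862 and 1.51 FPKM in longissimus and 0.486, 0.624 and 0.236 in gluteal muscle of Sanfen. For Wutou the longissimus values were 1.06, 0.843 and 1.74 and the gluteal ones 1.13, 1.71 and 2.67. Sanfen gluteal was below Sanfen longissimus and below Wutou gluteal without overlap. The log2 difference of Wutou from Sanfen in gluteal muscle was 0.94 (SE 0.23, limma adjusted p = 0.963). These comparisons share the Sanfen gluteal libraries. The TRIM45 row was 4.65, 2.32 and 3.71 FPKM in Sanfen gluteal.

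LOC106830394 is now listed as a coding gene without a symbol and overlaps CT55, a gene of the cancer and testis antigen class. It was 2.64, 2.26 and 2.44 FPKM in longissimus and 2.57, 0.419 and 0.489 in gluteal muscle of Sanfen. Among Wutou libraries, longissimus gave 2.39, 3.03 and 2.45 and gluteal 1.87, 1.46 and 2.09. Sanfen gluteal library 1 lay with the longissimus libraries, and the other 2 were the lowest of the 12. With all libraries the log2 difference in Sanfen was -0.81 (SE 0.29, limma adjusted p = 1). Without Sanfen gluteal library 1 it was -1.24 with a limma adjusted p of 0.0179, and averaged over strains -0.81 with 0.0300. Over the alternatives tried, the adjusted p ran from 0.0179 to 1 in Sanfen and from 0.0300 to 0.970 averaged. The CT55 row stayed below 0.1 FPKM.

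The remaining loci with the smallest p in Sanfen were LOC106835701, LOC106828749 and LOC106830453. LOC106828749 is a long non-coding RNA that neighbours VEGFA, the main vascular growth factor gene. It was 1.94, 2.17 and 0.722 FPKM in longissimus and 0.350, 0.431 and 0.0591 in gluteal muscle of Sanfen, without overlap. In Wutou, where the muscles overlapped, it was 0.371 to 1.72 and 0.153 to 2.31. The difference in Sanfen was -0.99 (SE 0.40, limma adjusted p = 1).

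In Wutou the smallest p between muscles belonged to LOC106831687, without match or description. It was 0.0561, 0.291 and 1.25 FPKM in longissimus and 0.660, 1.22 and 1.01 in gluteal muscle of Sanfen. In Wutou it was 3.04, 1.53 and 0.804 in longissimus and 0.204, 0.237 and 0.134 in gluteal. Wutou gluteal lay below Wutou longissimus and below Sanfen gluteal without overlap. The muscle difference was -1.15 in Wutou (SE 0.31, limma adjusted p = 0.870) and 0.42 in Sanfen (SE 0.31). The test of the difference between these 2 values gave -1.57 (SE 0.44, limma adjusted p = 1).

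**Figure D5:**
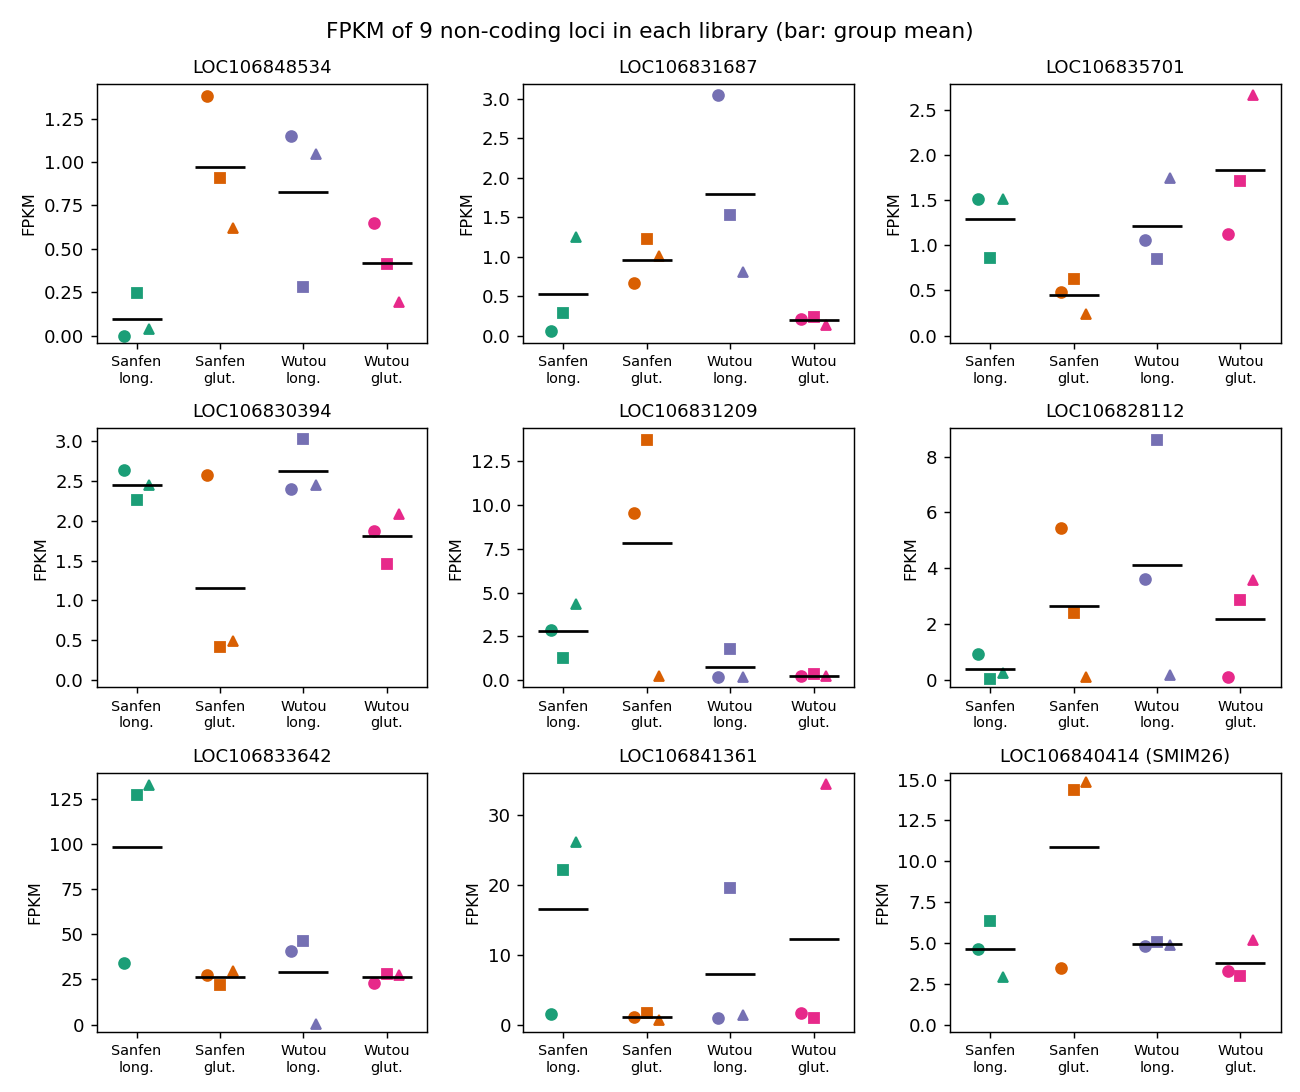
FPKM of 9 loci in each library by group (long., longissimus; glut., gluteal); the circle, square and triangle are libraries 1, 2 and 3 and the bar is the group mean. LOC106848534, LOC106831687 and LOC106835701 show groups that do not overlap, while LOC106830394, LOC106831209 and LOC106833642 each have a library away from the rest of its group.

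The loci with the next smallest p in Wutou were LOC106838497, LOC106833464, LOC106839066 and LOC106834801. LOC106838497, a long non-coding RNA that neighbours TCOF1, a ribosome biogenesis gene, was 1.60, 1.43 and 1.45 FPKM in longissimus and 0.879, 0.642 and 0.718 in gluteal muscle of Wutou. The other 3 were higher in gluteal muscle, with log2 differences of 0.64, 0.42 and 0.73. In all 4 the Wutou muscles did not overlap, and the limma adjusted p was 0.870.

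Averaged over strains the smallest p was that of LOC106836733, whose description is the human open reading frame name C1orf28. It was 1.89, 2.87 and 1.90 FPKM in longissimus and 4.43, 3.18 and 2.94 in gluteal muscle of Sanfen. The Wutou values were 1.45, 1.64 and 3.12 in longissimus and 3.32, 3.48 and 2.90 in gluteal. The difference was similar in both strains, at 0.49 in Sanfen and 0.50 in Wutou. Its mean was 0.49 (SE 0.15, limma adjusted p = 0.745). Wutou longissimus library 3 overlapped the gluteal values.

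Between strains in longissimus muscle the smallest p was that of LOC106846968, described as a member of the neuroblastoma breakpoint family. It was 1.31, 2.83 and 4.5 FPKM in longissimus and 2.10, 3.10 and 3.55 in gluteal muscle of Sanfen. Wutou had 0.964, 1.33 and 0.898 in longissimus and 1.25, 1.17 and 2.19 in gluteal. Most Wutou values lay below most Sanfen values, with overlap in each muscle. Averaged over muscles the log2 difference was -0.73 (SE 0.21, limma adjusted p = 0.793).

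LOC106839187, a long non-coding RNA that overlaps JPH1, whose product joins the surface membrane to the sarcoplasmic reticulum, was 1.79, 2.11 and 2.60 FPKM in Sanfen longissimus and 1.65, 1.24 and 0.929 in Wutou longissimus. These did not overlap, with a log2 difference of -0.48 (SE 0.17, limma adjusted p = 0.854). LOC106847264 was 1.60 to 2.0 in Sanfen longissimus and 0.223 to 1.47 in Wutou longissimus. The JPH1 row was 6.45 to 11.4 over all libraries.

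Between strains in gluteal muscle LOC106831209, described as dymeclin, a Golgi protein, had the widest difference among the loci with the 5 smallest p of a comparison. It was 9.54, 13.7 and 0.237 FPKM in Sanfen gluteal and 0.219, 0.336 and 0.220 in Wutou gluteal. In longissimus muscle it was 2.87, 1.27 and 4.34 in Sanfen and 0.198, 1.76 and 0.203 in Wutou. Sanfen gluteal library 3 lay with the Wutou libraries. The log2 difference was -2.20 (SE 0.74, limma adjusted p = 0.963), and over the alternatives tried the adjusted p ran from 0.0818, without that library, to 1. The row of its described gene, DYM, was even at 14.4 to 18.6 FPKM.

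Lower values in Wutou were also measured at 4 more loci with a small p between strains. LOC106832385 was 2.45, 0.860 and 1.76 FPKM in Sanfen gluteal and 0.479, 0.570 and 0.513 in Wutou gluteal. LOC106825493 was 2.44, 1.52 and 1.74 in Sanfen gluteal and 0.719, 1.16 and 0.802 in Wutou gluteal. Both were without overlap. LOC106832036, now a pseudogene that neighbours the mitochondrial dehydrogenase gene IDH2, was 1.17 to 2.78 in Sanfen gluteal and 0.658 to 1.26 in Wutou gluteal, with overlap. LOC106822929, a long non-coding RNA described as a cytosolic carboxypeptidase, was lower in Wutou averaged over muscles by a log2 difference of -0.38 (SE 0.13, limma adjusted p = 0.793).

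In the interaction of strain and muscle, the loci with the smallest p were LOC106831687, LOC106848534 and LOC106835701, followed by LOC106825094 and LOC106830453. LOC106825094, described as a glycosyltransferase-like protein, was 0.788 to 1.29 FPKM in Sanfen longissimus, 1.30 to 1.39 in Sanfen gluteal, 1.09 to 1.83 in Wutou longissimus and 0.609 to 1.18 in Wutou gluteal. The muscle difference was 0.19 in Sanfen and -0.40 in Wutou. The interaction was -0.59 (SE 0.23, limma adjusted p = 1).

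Well-studied long non-coding RNAs could not be followed by name: of 69 such symbols, among them XIST, MALAT1, NEAT1, H19 and MEG3, 0 were found as a gene name in the table. A list of 29 genes held protein partners of long non-coding RNAs, imprinted genes such as IGF2 and KCNQ1, and genes of RNA processing and decay. Of these, 21 were measured, in 24 rows. By limma, 0 of these rows were called in each direction of each comparison. The smallest p was that of SPEN, a partner of XIST, in Wutou. It was 2.88, 3.28 and 2.26 FPKM in longissimus and 5.02, 4.74 and 4.81 in gluteal muscle of Wutou, without overlap (limma adjusted p = 0.870). SMG6, an endonuclease of nonsense-mediated decay, had the smallest p between strains in longissimus muscle and averaged over muscles, with 1.76 to 2.60 FPKM in Sanfen and 1.22 to 1.87 in Wutou. KCNQ1 had the smallest p of the list between muscles in Sanfen, between strains in gluteal muscle and in the interaction.

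The libraries did not share the extremes of the loci evenly. Sanfen gluteal library 1 held the highest value for 46 loci (19.7%), beside 17.8% of all kept rows. Wutou longissimus library 2 held the lowest for 30 loci (12.8%), beside 15.7%. Sanfen longissimus library 2 held the highest for 30 loci (12.8%, beside 15.4%) and the lowest for 29 (12.4%, beside 11.4%).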

How the data were processed

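RNA was measured in 12 libraries, 3 for each strain and muscle. Per the labels, tissue was frozen and RNA taken with Trizol before Illumina library preparation. The authors deposited 1 table of FPKM per locus. Per the submitters' processing notes, cutadapt, Bowtie2 and TopHat2 were used, without versions. The genome build and read strand are not given in the sources used here, and no scaling between libraries is recorded. Most locus identifiers have the MSTRG form and 123 of the 234 loci also hold assembled transcripts. Another 14 non-coding rows carry several names and were left out. No sequence of these loci is printed.

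From the deposited values, log2(FPKM + 1) was tested with limma 3.58.1 in R 4.3.3 (statmod 1.5.0) over the 12408 rows in which 3 or more libraries reached 1 FPKM, with 4 groups, 8 residual degrees of freedom, an intensity trend and two-sided tests. Differences on this scale understate the change of low rows. The strain comparison averaged over muscles treated libraries of 1 strain and number as a random block (consensus correlation 0.188). Pairing by replicate number was checked by the correlation of deviations from group means over all kept rows. It was 0.246, 0.110 and 0.158 in Sanfen, each above the limit of 0.1, and 0.182, 0.165 and 0.0711 in Wutou, so every pair met the limit in Sanfen and 1 of 3 did not in Wutou. The random block used the numbers of both strains all the same, since 6 donkeys gave 12 samples. All other comparisons had no block in the main fit, the muscle comparison in Sanfen included. Their printed SE and p therefore make no use of a pairing. The check rests on the values, and nothing else says which libraries share a donkey, so p-values measure the spread between these libraries.

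The loci and lists were chosen with earlier results of these data known. A locus was named when it passed the threshold, had 1 of the 5 smallest p of a comparison, was among the 10 most abundant, was listed at 0 in 1 library and at 5 FPKM or more in another, was among the 5 with the lowest or the highest SD of those with a mean of at least 5, or lay at the threshold. Loci beside muscle genes and with histocompatibility descriptions were added after their values were seen. LOC106840414 also met none of these rules and was shown for its pattern of high libraries. Alternatives were a pseudocount of 0.1, no filter or one at 5 FPKM, median-of-ratios and quantile scaling, a replicate block, and leaving out each library. The script was tested on simulated data.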

Additional observations from a re-analysis of the deposited data

How the results depend on the processing

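The number of loci called was 0 in all 7 comparisons with a pseudocount of 0.1, without a filter, with a filter at 5 FPKM and under both rescalings. With the replicate block, the paired fit in Sanfen included, it was 0 as well, and 0 without the block in the strain comparison that had one. Leaving out each library in turn gave 0 to 1 for gluteal against longissimus muscle in Sanfen and 0 to 1 averaged over strains. The 1 was LOC106830394, called without Sanfen gluteal replicate 1, and the cause was not tested. In the other 5 comparisons it stayed at 0. Each locus with 1 of the 5 smallest p of a comparison kept the direction of that difference under every alternative that could be fitted. Differences of loci named for other reasons were not followed through the alternatives. Over all 12408 rows, calls in Sanfen were 3, and 5 with a pseudocount of 0.1 or without Sanfen gluteal replicate 1, 1 with the replicate block and 0 without Sanfen gluteal replicate 2. Reads per library are unknown, so the limit set by depth could not be stated.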
